A study of Mus musculus with 2 samples.

Results

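The interferon gamma GTPases described here are 10 genes, Gbp2, Gbp3, Gbp4, Gbp5, Gbp7, Igtp, Irgm1, Iigp1, Tgtp1 and Tgtp2, found by symbol among the 32285 genes of the deposited gene lists. All 10 were listed, and each had unique molecular identifiers (UMIs, 1 per captured RNA molecule) in both libraries. They were measured by single-cell RNA sequencing (10x 3′ v3.1) of tumours grown subcutaneously in C57BL/6 mice from CMT167R, a WT line that the labels call resistant to anti-PD1. One library held tumours of mice that received the agent PKCi each day by intraperitoneal injection (3 mg/kg), and the other tumours of control mice that received solvent. Tumours were collected once control tumours measured 400 mm3; how many mice went into a library is not stated in the labels. Each treatment has 1 library, so nothing below was tested and no value could be checked in a replicate. Intervals are at the 95% level and describe counting error alone.

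These proteins are GTPases that cells make after interferon gamma, the cytokine of activated T and NK cells, binds the receptor chains encoded by Ifngr1 and Ifngr2. Signalling through the kinases Jak1 and Jak2 then switches on genes with gamma-activated sites (GAS), among them Irf1, a factor that binds interferon-stimulated response elements (ISRE). Guanylate-binding proteins (GBPs) and immunity-related GTPases (IRGs) are best known in mouse macrophages, where they settle on the membranes around intracellular microbes, break them open and expose microbial molecules to inflammasomes. Among the IRGs, Irgm1 and Igtp (Irgm3) are regulators that sit on the cell's own membranes and keep the others inactive there. Iigp1 (Irga6), Tgtp1 and Tgtp2 (both Irgb6) are effectors.

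The GAS and ISRE letters are short, and the promoters were searched for them. RefSeq windows of 300 bases (250 before and 50 after the start of transcription, GRCm38.p6) matched 8 of the 10 genes by symbol; Gbp4 and Iigp1 are named only. The ISRE core GAAANNGAAA, searched on both strands, lay in the promoters of 8 of these 8 genes (in 8 of 9 windows, since Gbp3 has more than 1), against 3.44% of all 32851 windows. The GAS letters TTCNNNGAA, which read alike on both strands, lay in 5 of the 8, against 8.30% of all windows. Both motifs lay in 5 of the 8, against 0.454% of all. The 170 bases before the start are printed 5′ to 3′ on the gene's own strand, with motif matches in capitals, to show how the arrangement differs among the genes.
Gbp2 (chr3:142620493-142620662, plus strand): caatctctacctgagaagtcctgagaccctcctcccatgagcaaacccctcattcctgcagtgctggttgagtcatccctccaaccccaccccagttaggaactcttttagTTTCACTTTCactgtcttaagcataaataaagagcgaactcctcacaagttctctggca
Gbp3 (chr3:142559874-142560043, plus strand): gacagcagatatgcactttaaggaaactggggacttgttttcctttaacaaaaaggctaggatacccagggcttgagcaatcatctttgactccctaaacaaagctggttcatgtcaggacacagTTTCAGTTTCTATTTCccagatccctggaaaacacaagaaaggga
Gbp5 (chr3:142496764-142496933, plus strand): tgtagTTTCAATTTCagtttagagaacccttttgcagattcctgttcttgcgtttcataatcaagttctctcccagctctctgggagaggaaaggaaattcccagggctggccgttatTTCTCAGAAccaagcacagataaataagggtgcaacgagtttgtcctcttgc
Gbp7 (chr3:142530166-142530335, plus strand): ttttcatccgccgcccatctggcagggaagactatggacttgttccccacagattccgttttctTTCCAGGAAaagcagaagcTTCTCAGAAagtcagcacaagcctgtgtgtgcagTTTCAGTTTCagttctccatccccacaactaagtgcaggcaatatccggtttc
Igtp (chr11:58199386-58199555, plus strand): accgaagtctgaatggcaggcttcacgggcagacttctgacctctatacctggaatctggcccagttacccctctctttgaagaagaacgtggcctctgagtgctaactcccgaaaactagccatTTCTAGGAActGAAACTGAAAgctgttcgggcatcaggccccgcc
Irgm1 (chr11:48871421-48871590, minus strand): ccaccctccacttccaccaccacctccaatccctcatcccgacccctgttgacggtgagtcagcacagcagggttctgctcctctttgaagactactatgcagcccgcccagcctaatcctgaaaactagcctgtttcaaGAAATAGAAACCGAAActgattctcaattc
Tgtp1 (chr11:48992247-48992416, minus strand): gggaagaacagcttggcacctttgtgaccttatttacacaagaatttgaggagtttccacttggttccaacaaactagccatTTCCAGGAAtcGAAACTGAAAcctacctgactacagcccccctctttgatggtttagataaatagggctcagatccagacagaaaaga
Tgtp2 (chr11:49064213-49064382, minus strand): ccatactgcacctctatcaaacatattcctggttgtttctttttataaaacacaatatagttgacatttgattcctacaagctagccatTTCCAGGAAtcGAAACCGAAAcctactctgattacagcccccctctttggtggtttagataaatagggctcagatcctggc
In Igtp, Tgtp1 and Tgtp2 the GAS letters stood just before the ISRE core, with their first bases 11 apart. Gbp2 had a single core 59 bases before the start, whereas Gbp3 and Irgm1 had overlapping cores, the first of them 45 and 30 bases before it. In Gbp5 the core lay farther out, at 165 bases, with GAS matches at 52 bases and, outside the stretch printed, at 245 bases. Gbp7 had 2 GAS matches ahead of its core. A match describes letters and does not show that a factor binds there.

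**Figure D1:**
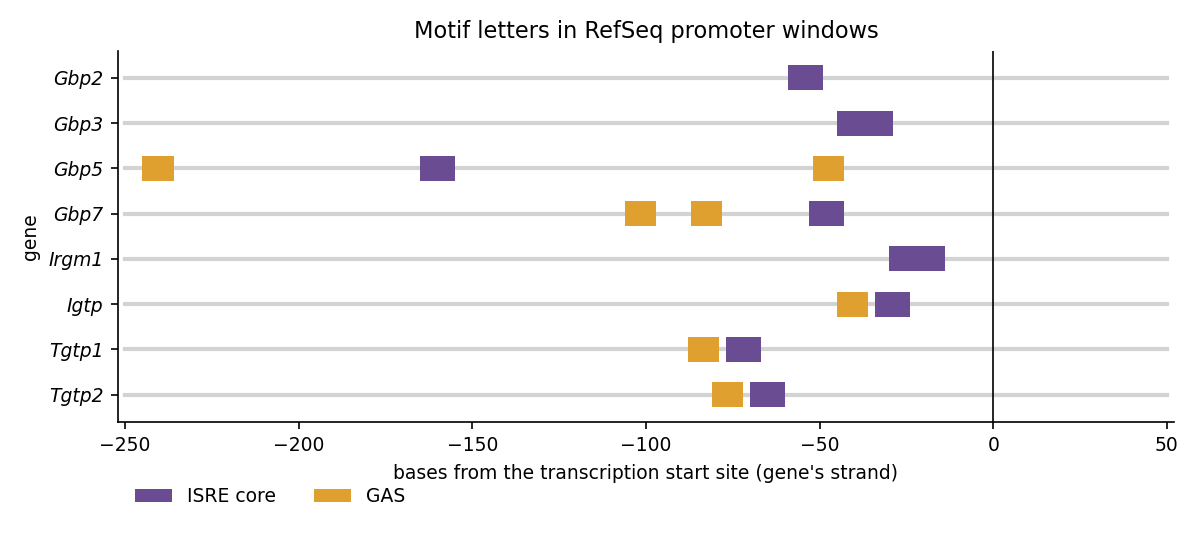
Positions of the ISRE core (purple) and GAS letters (yellow) in the RefSeq promoter windows of 8 genes, as bases from the start of transcription on the gene's own strand (x axis). All 8 genes have an ISRE core, and in Igtp, Tgtp1 and Tgtp2 a GAS match lies immediately before it.

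Gene spans are those of the GENCODE annotation on GRCm38, whose starts can differ from RefSeq's. Gbp5 (chr3:142493978-142522344), Gbp7 (chr3:142530342-142550149), Gbp3 (chr3:142560026-142573209) and Gbp2 (chr3:142620602-142638008) lie in one stretch on the plus strand of chromosome 3, and Gbp4 (chr5:105115767-105139586) on the minus strand of chromosome 5. Irgm1 (chr11:48861968-48871683), Tgtp1 (chr11:48985327-48994172) and Tgtp2 (chr11:49057194-49064206) are on the minus strand of chromosome 11, Igtp (chr11:58199556-58207591) is on its plus strand, and Iigp1 (chr18:60376027-60392634) is on the plus strand of chromosome 18. All 10 are annotated as protein-coding. The longest transcripts of Tgtp1 and Tgtp2 are identical over their last 500 bases (100%), the end that 3′ libraries read. Reads from that stretch cannot be told apart, so the counts of both genes are uncertain. In the other 5 pairs compared, identity was 44.6% to 47.8%.

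After filtering there were 7078 PKCi cells (median 29550.5 UMIs) and 6269 control cells (median 32992 UMIs), with 18 barcodes present in both. Marker genes gave macrophage-like (498 PKCi and 142 control cells), monocyte-like (493 and 590), neutrophil-like (187 and 292), T-like (119 and 65), dendritic-like (64 and 26), NK-like (51 and 36), endothelial-like (51 and 34) and fibroblast-like (28 and 61) classes. The main population of the tumours held 5398 PKCi and 4875 control cells. Its level of Krt8, an epithelial keratin, was 481 and 381 CPM (UMIs per 1e6 UMIs of a class), but the other 5 of 6 carcinoma markers stayed under 50 CPM, so it is named by its size and not by a cell type. Ratios are PKCi over control. A gene was called when it had at least 20 UMIs in a class, differed at least 1.5 times and had a ratio interval without 1; calls were counted in the 4 classes that had 100 or more cells per library.

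The family was found in every class, and T-like, macrophage-like and endothelial-like cells were among the highest in both libraries. In PKCi the sum of the 10 genes was 485 CPM (433 to 542) in T-like, 386 CPM (372 to 402) in macrophage-like, 347 CPM (311 to 386) in endothelial-like and 257 CPM (218 to 301) in fibroblast-like cells. NK-like, dendritic-like, monocyte-like and neutrophil-like cells followed at 154, 153, 130.4 and 123 CPM, with intervals that overlapped between neighbours. The main population was lowest, at 35.4 CPM (34.6 to 36.2). In control, endothelial-like cells came first at 924 CPM (835 to 1019), then T-like at 559 CPM (492 to 632), macrophage-like at 288 CPM (269 to 309) and monocyte-like cells at 219.7 CPM (208 to 232). Dendritic-like, neutrophil-like, NK-like and fibroblast-like cells had 176, 141, 122 and 98.8 CPM, neighbours again overlapping, and the main population 42.5 CPM (41.6 to 43.4). The T-like sum was 13.7 times that of the main population in PKCi and 13.1 times in control. Since the main population supplied 92.7% of all UMIs in PKCi and 92.9% in control, it still held 62.8% and 71.7% of the family's UMIs.

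**Figure D2:**
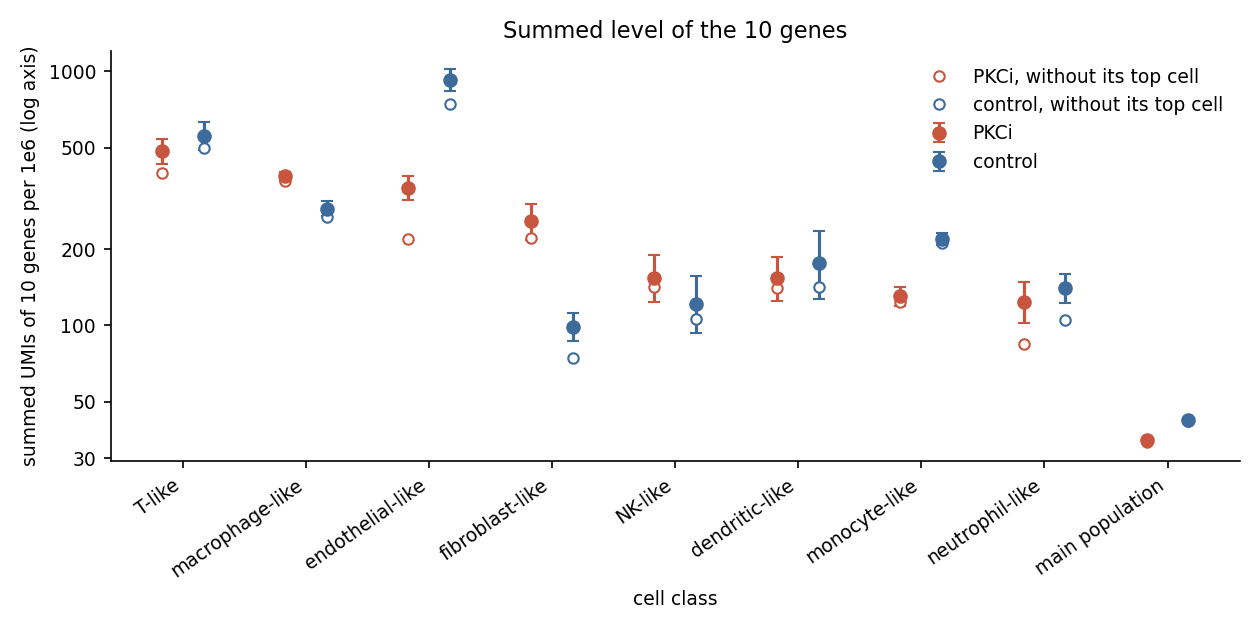
Summed level of the 10 genes (y axis, CPM, log axis) in 9 cell classes, PKCi (red) left of control (blue), with 95% Poisson intervals; open circles give the level without the cell that held the most. The libraries differ most in endothelial-like and fibroblast-like cells, and the main population is lowest in both.

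Single members differed in where they were found. Iigp1, an effector, stood at 95.2 CPM in endothelial-like, 79.8 in T-like, 78.4 in macrophage-like and 74.9 CPM in fibroblast-like cells of PKCi, but at 2.30 CPM or less in each of the other 5 classes. In control it stood at 279 CPM in endothelial-like, 84.2 in T-like and 55.9 CPM in macrophage-like cells, against 14.0 in neutrophil-like, 11.2 in fibroblast-like and 5.75 CPM in monocyte-like cells. Macrophage-like and monocyte-like cells were far apart for this gene in both libraries. Its UMIs were unevenly spread over cells. The top cell held 49.0% of them in T-like, 36.6% in endothelial-like and 7.17% in macrophage-like cells of PKCi. In control it held 31.6%, 38.8% and 27.2%. Gbp2, which coats the vacuoles of intracellular parasites, differed less between these classes, with 116 (PKCi) and 106 CPM (control) in macrophage-like and 48.2 and 101.1 CPM in monocyte-like cells. Igtp was highest in T-like cells (59.5 CPM in PKCi, 106 in control) and stayed at 20.4 CPM or less elsewhere except in control endothelial-like cells, at 34.6 CPM. Gbp4 stood at 48.5 CPM in T-like and 30.7 CPM in endothelial-like cells of PKCi and at 70.9 and 69.3 CPM in those of control, with overlapping intervals in both libraries. It stood at 1.70 and 1.20 CPM in fibroblast-like cells.

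**Figure D3:**
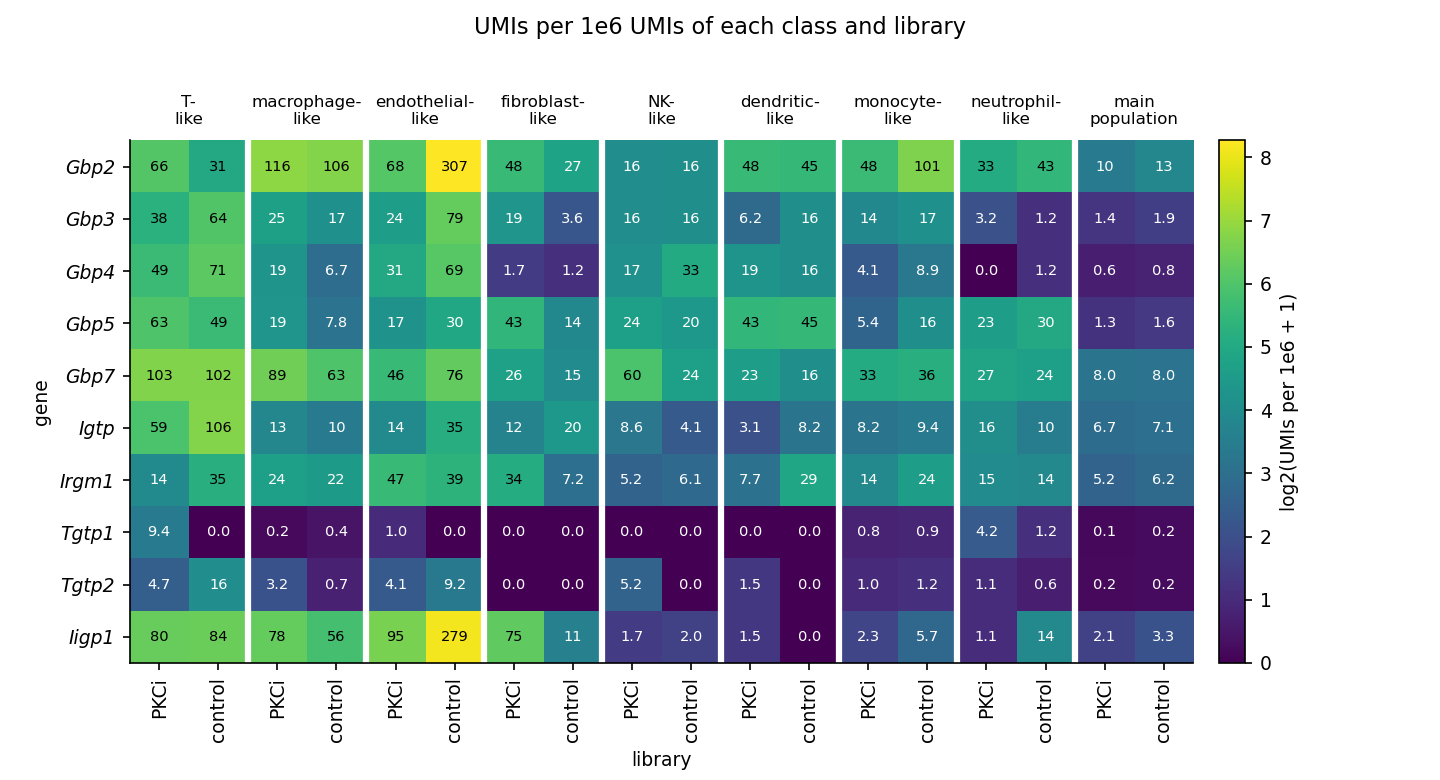
Level of each gene (rows) in each class and library (columns, PKCi left of control), printed as CPM and coloured by log2(CPM + 1). Iigp1 is high in T-like, macrophage-like and endothelial-like cells of both libraries, though unevenly spread over their cells, and every gene is low in the main population.

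Over the 18 class-by-library sums, each gene's log2(CPM + 1) was set against the mean of the other members. Pearson's r was 0.88 for Gbp7, 0.84 for Gbp3 and 0.76 for Tgtp2, 0.55 to 0.69 for 6 others and 0.14 for Tgtp1, which had few counts. These sums share libraries, depth and free RNA, so the values are descriptions. Of 6575 other genes that reached 50 CPM in a class, those most like the family's mean included Lbh (0.89), Parp14 (0.87), Ifi47 (0.86), Klf13 (0.85), S1pr1 (0.84), Endod1 (0.82) and Sipa1 (0.82). Ifi47 is itself an interferon-inducible GTPase, and Parp14 is an interferon-inducible ADP-ribosyltransferase. Lbh, Ifi47, S1pr1, Endod1 and Sipa1 had their highest level in control endothelial-like cells, Parp14 in control T-like and Klf13 in PKCi T-like cells. The family's own sum was highest in endothelial-like cells in control and in T-like cells in PKCi.

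The ligand came from few cells. T-like cells held 61.8% of the Ifng UMIs in PKCi and 72.4% in control, at 139 CPM (112 to 171) and 168 CPM (133 to 211). NK-like cells had 56.9 CPM (39.2 to 80.0) and 42.7 CPM (26.4 to 65.2). An Ifng UMI was seen in 33 of 119 PKCi T-like cells (27.7%, exact Clopper-Pearson interval 19.9 to 36.7) and 16 of 65 control T-like cells (24.6%, 14.8 to 36.9). Levels and shares overlapped between the libraries. As background, neutrophil-like cells had 0 of 187 and 0 of 292 cells with Ifng, for which 3 counts would be shares of 1.604% and 1.03% and the exact upper limits are 1.95% and 1.26%. These limit cells with an Ifng UMI, not cells that express the gene; median depths were 4225 and 4745 UMIs in T-like and 2051 and 3393 UMIs in neutrophil-like cells.

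In macrophage-like cells the family was somewhat higher in PKCi, with a sum of 386 against 288 CPM in control, a ratio of 1.34 (1.24 to 1.45). Of 9 members measured, 3 were called higher and 0 lower, where 8.56% of all 11094 genes measured were called higher and 5.87% lower. Gbp4 stood at 18.5 CPM (122 UMIs in 62 cells) in PKCi against 6.72 CPM (19 UMIs in 12 cells) in control, a ratio of 2.76 (1.69 to 4.74). Gbp5, which promotes assembly of the NLRP3 inflammasome in mouse macrophages, stood at 19.0 CPM (125 UMIs) against 7.78 CPM (22 UMIs), a ratio of 2.44 (1.54 to 4.04). Tgtp2, uncertain because of its twin, rested on 21 PKCi and 2 control UMIs, a ratio of 4.51 (1.10 to 39.7). The other 6 measured had ratios above 1 without a call. Gbp3 (1.4997, 1.08 to 2.12), Gbp7 (1.42, 1.20 to 1.69) and Iigp1 (1.40, 1.17 to 1.69) had intervals above 1, while those of Igtp (1.37, 0.879 to 2.20), Irgm1 (1.11, 0.822 to 1.51) and Gbp2 (1.09, 0.956 to 1.26) included it. Grouped at Leiden resolution 0.6, coarser than the 1.0 used, the log2 ratio of Gbp5 was -0.011, against 1.26 at 1.0. At 0.6 the macrophage-like class held 1096 PKCi and 803 control cells and no class was monocyte-like, so that value covers a wider set of cells. The median log2 ratio of the 9 was 0.50, against 0.02 over all genes. The 9 macrophage markers themselves summed to 13577 CPM in PKCi and 23645 CPM in control, and their part in the difference was not tested. With each cell thinned to 5000 UMIs, 62 of 457 PKCi cells (13.6%, 10.6 to 17.1) and 15 of 136 control cells (11.03%, 6.31 to 17.5) held UMIs of at least 3 members, against 24.5% and 32.4% unthinned at medians of 12146.5 and 19143.5 UMIs. The thinned shares overlapped.

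In monocyte-like cells the sum was lower in PKCi, 130.4 against 219.7 CPM in control, a ratio of 0.594 (0.535 to 0.658). Of 8 members measured, 5 were called lower and 0 higher, where 6.42% of all 10742 genes measured were called lower and 8.24% higher. Gbp5 stood at 5.36 CPM (21 UMIs in 13 cells) in PKCi against 16.2 CPM (93 UMIs in 49 cells) in control, a ratio of 0.331 (0.196 to 0.536). Gbp2 had 189 PKCi and 580 control UMIs, a ratio of 0.477 (0.403 to 0.564), and Gbp4 16 and 51 UMIs, a ratio of 0.460 (0.245 to 0.819). The regulator Irgm1 had a ratio of 0.582 (0.416 to 0.803). Iigp1 had 9 PKCi and 33 control UMIs, a ratio of 0.3996 (0.168 to 0.854). The intervals of Gbp3, Gbp7 and Igtp included 1, at ratios of 0.801, 0.929 and 0.868, and Tgtp1 and Tgtp2 had under 20 UMIs. The median log2 ratio of the 8 was -0.92, against 0.09 over all genes; a median-ratio scaling would shift this class by 0.11, neutrophil-like cells by 0.32, dendritic-like cells by -0.13 and endothelial-like cells by -0.14 on the log2 scale. The 9 macrophage markers summed to 3963 CPM in PKCi and 7899.7 CPM in control in this class, and their part was not tested. After thinning, 19 of 358 PKCi cells (5.31%, 3.23 to 8.16) and 37 of 519 control cells (7.13%, 5.07 to 9.69) held at least 3 members, shares that overlapped, against 5.88% and 10.3% unthinned.

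The lower level lay in one portion of the monocyte-like cells. This split was made after the values were seen: with clusters at Leiden resolution 1.6, 163 PKCi and 447 control cells kept the name, 321 and 107 became unnamed, and 8 and 36 became macrophage-like. Ly6c2, a marker of blood monocytes, stood at 471 and 307 CPM in the cells that kept the name and at 8.32 and 20.8 CPM in those unnamed. Plac8, another monocyte marker, differed likewise, at 2054 and 1371 CPM against 44.6 and 34.0 CPM. Ccr2, also on the monocyte list, did not, at 358.5 and 215.9 CPM against 331.8 and 310.2 CPM. Where the name was kept the family stood at 277 CPM in PKCi against 246 CPM in control, a ratio of 1.13 (0.971 to 1.30). In the unnamed cells it stood at 90.5 against 212 CPM, a ratio of 0.427 (0.359 to 0.506), with Gbp2 at 36.3 against 106 CPM. Macrophage-like and monocyte-like cells together had 291 against 242 CPM, a ratio of 1.20 (1.14 to 1.27), with Iigp1 at 50.01 against 22.3 CPM and Gbp2 at 90.8 against 103 CPM. Gbp4 stood at 13.1 against 8.17 CPM (1.61, 1.20 to 2.18) and Gbp5 at 13.9 against 13.4 CPM (1.04, 0.806 to 1.33). The mix of the classes differed between the libraries. Macrophage-like cells gave 2.94% of all UMIs in PKCi and 1.31% in control, and monocyte-like cells 1.75% and 2.65%. The part of this mix in the pooled ratios was not tested.

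In neutrophil-like cells the sum was 123 against 141 CPM in control, a ratio of 0.878 (0.697 to 1.10). Of 6 members measured, 1 was called lower and 0 higher, where 5.82% of all 8809 genes measured were called lower and 21.9% higher. It was Iigp1, with 1 PKCi UMI and 23 control UMIs, of which 22 came from 1 cell; without the top cell of each library no member was called. With free RNA subtracted the log2 ratio of the sum was 0.48, against -0.19 without that step, and 3 members were called higher and 0 lower. Krt8, which these cells should lack, was at 60.7% of its main population level in PKCi and 32.0% in control. At 5000 UMIs, 1 of 19 PKCi cells (5.26%, 0.133 to 26.0) and 2 of 70 control cells (2.86%, 0.348 to 9.94) held at least 3 members, against 1.604% and 2.74% unthinned.

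**Figure D4:**
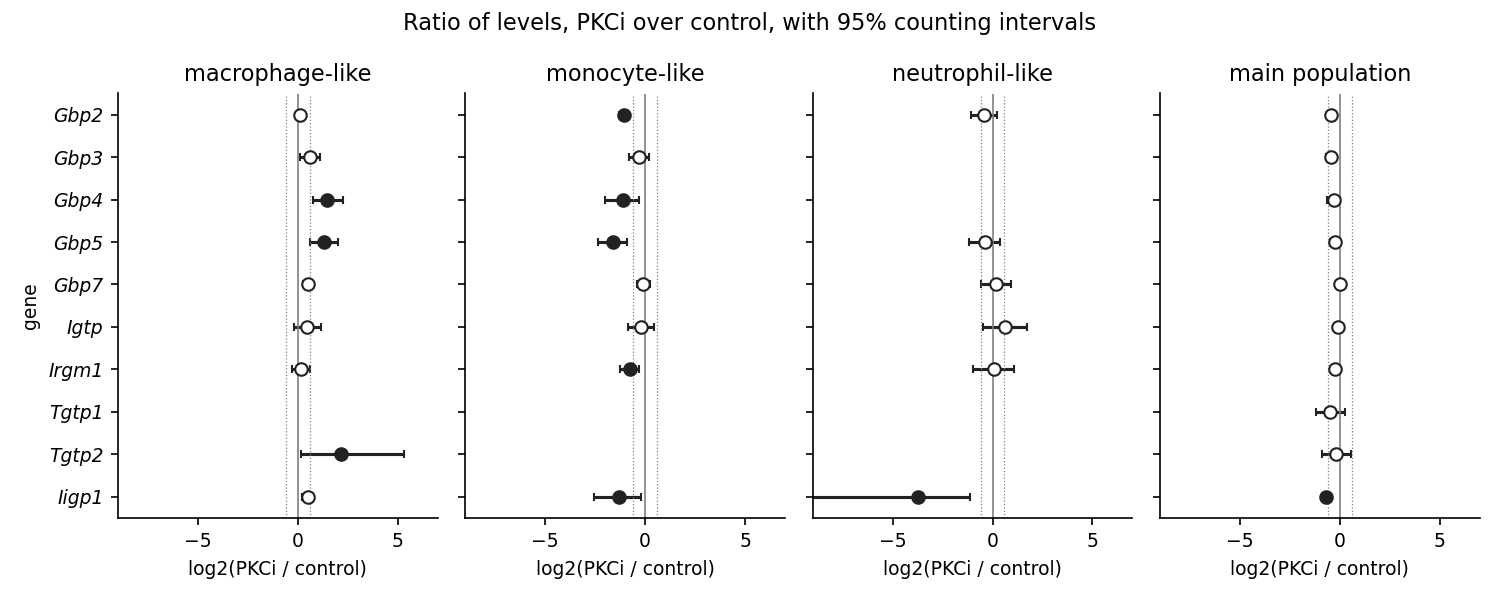
Log2 ratio of the level in PKCi over control (x axis) for each gene with at least 20 UMIs in 4 classes, with 95% counting intervals (that of Iigp1 in neutrophil-like cells runs past the axis); filled points were called, and dotted lines mark a ratio of 1.5 either way. Gbp4 and Gbp5 lie to the right in macrophage-like and to the left in monocyte-like cells.

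In the main population the family was low in both libraries, with a sum of 35.4 against 42.5 CPM in control, a ratio of 0.832 (0.807 to 0.859). Of the 10 members, 1 was called lower and 0 higher, where 4.63% of all 17684 genes measured were called lower and 4.23% higher. Iigp1 stood at 2.06 CPM (426 UMIs in 214 cells) in PKCi against 3.28 CPM (660 UMIs in 183 cells) in control, a ratio of 0.627 (0.554 to 0.709). Its log2 ratio kept this sign under the 11 alternatives run, between -0.82 and -0.33, but it was not called with doublets kept, nor in cells without Ptprc, Tyrobp or Fcer1g UMIs. Few cells held most of its UMIs: the 1% with the most had 62.4% of them in PKCi and 75.2% in control. Cells with an Iigp1 UMI were not fewer in PKCi, at 3.96% against 3.75% in control. Gbp2 stood at 9.82 against 13.3 CPM (0.741, 0.699 to 0.785) and Gbp3 at 1.38 against 1.90 CPM (0.725, 0.619 to 0.847). Both were lower in PKCi by less than the calling fold. Irgm1 had 5.21 against 6.24 CPM (0.835, 0.769 to 0.906) and Igtp 6.65 against 7.15 CPM (0.931, 0.864 to 1.003). Gbp7, which links GBPs to the NADPH oxidase in mouse macrophages, was level, at 8.001 against 7.97 CPM (1.004, 0.937 to 1.08). Gbp4, Gbp5, Tgtp1 and Tgtp2 had 0.803, 0.851, 0.722 and 0.888 as ratios. The median log2 ratio of the 10 was -0.29, against -0.02 over all genes.

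These low levels were set against 16 leukocyte genes, chosen as genes that the main population should lack. Their level there was a median of 0.515% (PKCi) and 0.366% (control) of that in monocyte-like cells, spanning 0.302% (Tyrobp) to 12.9% (Arhgdib) in PKCi and 0.212% (Cybb) to 12.1% (Arhgdib) in control. For the 10 members it was a median of 22.2% and 18.3%, from 10.2% (Gbp3) to 89.5% (Iigp1) in PKCi and from 8.72% (Gbp4) to 76.0% (Igtp) in control. Arhgdib stood above Gbp3 in PKCi and above Gbp3, Gbp4 and Gbp5 in control. Itgb2 stood at 3.77% in PKCi and 4.11% in control, so the 16 genes were not equally low in the main population. The share of Iigp1 in PKCi rests on 9 monocyte-like UMIs, 5 of them in 1 cell, and macrophage-like cells had 78.4 CPM of it. The leukocyte genes in the main population summed to 163 CPM in PKCi and 136 CPM in control, of which Arhgdib made 67.0 and 62.4 CPM; their part in the family's level was not tested.

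The family's UMIs in the main population were unevenly spread over its cells. The 5% of cells with the most held 43.6% of them in PKCi and 51.8% in control, and the 5% richest in the leukocyte genes held 26.7% and 24.3% of those. The leukocyte genes had more UMIs, 33764 and 27415, and sparser counts look more concentrated. Drawn down once to the family's 7329 and 8551 UMIs, a comparison added after the values were seen, their richest 5% of cells held 30.7% and 26.3%. Arhgdib alone made 67.0 CPM of the leukocyte genes' 163 CPM in PKCi and 62.4 of 136 CPM in control. Its part in these shares was not tested. 385 of 5398 PKCi cells and 217 of 4875 control cells held 50% of the family's UMIs. After thinning to 5000 UMIs, 34 of 5192 PKCi cells (0.655%, 0.454 to 0.914) and 54 of 4822 control cells (1.12%, 0.842 to 1.46) held at least 3 members, against 7.84% and 8.43% unthinned; the thinned intervals overlapped slightly.

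**Figure D5:**
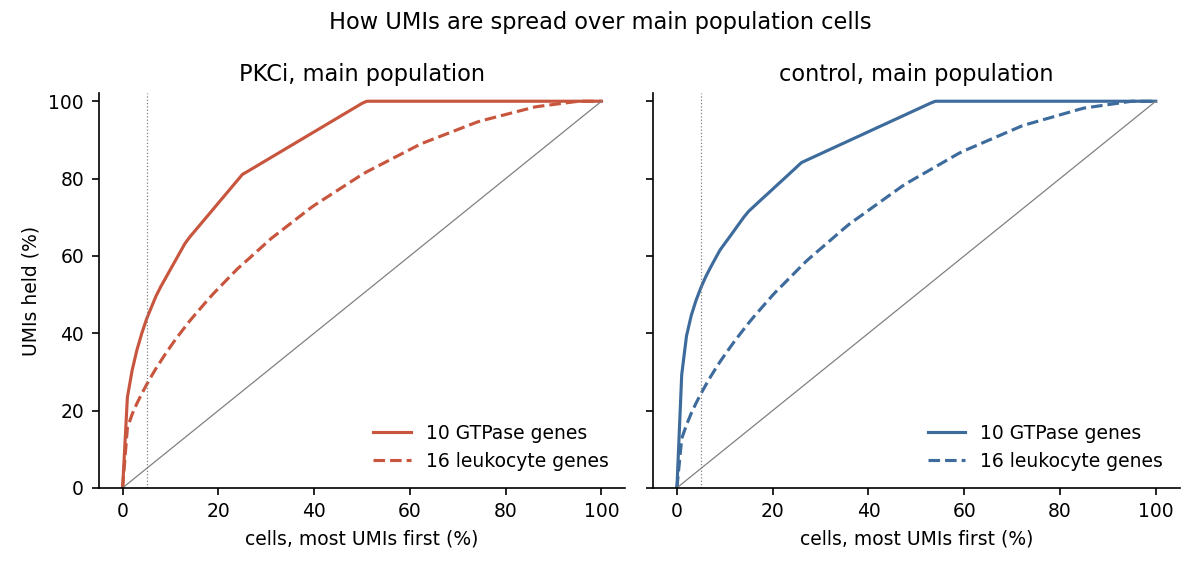
Share of UMIs held (y axis) by main population cells ordered from most to fewest UMIs (x axis, percent of cells), for the 10 GTPase genes (solid) and 16 leukocyte genes (dashed), PKCi left and control right; the grey diagonal is an even spread and the dotted line marks 5% of cells. At 5% the solid lines reach 43.6% and 51.8%, the dashed ones, from more UMIs, 26.7% and 24.3%.

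Other genes of the pathway, which were not used to choose these 34 PKCi and 54 control cells, stood higher in them than in the remaining cells of the same library. Cxcl9, a chemokine that draws T cells, stood at 85.6 against 0.958 CPM in PKCi and at 85.8 against 1.73 CPM in control. Cd274, the gene of PD-L1, stood at 56.8 against 5.61 CPM in PKCi and at 70.6 against 5.10 CPM in control. In each case the chosen cells of both libraries were far above the rest. Irf1 stood at 536 against 197 CPM in PKCi and at 490.4 against 170.1 CPM in control. Psmb8, a subunit of the immunoproteasome, stood at 421 against 161 CPM in PKCi and at 471 against 168 CPM in control. Irgm2, another IRG regulator, stood at 21.6 against 1.05 CPM in PKCi and at 56.9 against 1.03 CPM in control. Ifngr1, the receptor chain, was close in both sets of cells, at 19.8 against 20.3 CPM in PKCi and at 24.2 against 19.4 CPM in control. Krt8 stood at 342 against 482 CPM in PKCi and at 302 against 382 CPM in control. The type I interferon genes listed, 22 of them in the files, were higher as well, summing to 1779 against 463 CPM in PKCi and to 1888 against 436 CPM in control. The leukocyte genes summed to 387 against 159.9 CPM in PKCi and to 135 against 136 CPM in control, and their part in the PKCi values was not tested.

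Clusters within the main population also differed in the family's level. Over 11 clusters it spanned 19.8 to 90.05 CPM in PKCi and 20.5 to 214 CPM in control, the highest in a cluster of 31 PKCi and 10 control cells that also carried macrophage genes. Its 9 macrophage markers summed to 3769.9 CPM in PKCi and 4683 CPM in control, against 22.3 to 62.2 CPM in the other 10 clusters of either library, and its leading genes included Mrc1 and F13a1. It held 75 of the main population's 7329 family UMIs in PKCi and 47 of 8551 in control. The next highest cluster, with 636 PKCi and 503 control cells, had 87.0 and 91.9 CPM, with Mki67, a gene of cycling cells, at 60.9 and 73.3 CPM. The lowest, with 541 and 416 cells, had Mki67 at 156 and 161 CPM. Mki67 and the family did not follow 1 order over the clusters. The cluster with the least Mki67, at 59.9 and 49.8 CPM, had the family at only 24.1 and 31.3 CPM. Of the cells with at least 3 members after thinning, 19 of 34 in PKCi and 10 of 54 in control lay in the second highest cluster. Another cluster (431 PKCi and 656 control cells) held 1 and 20 of them, with the family at 39.4 and 63.2 CPM and Mki67 at 200.9 and 201.3 CPM. In most clusters the family was lower in PKCi, as at 59.9 against 91.4 CPM (583 and 318 cells). Some intervals overlapped, as in the second highest cluster (82.8 to 91.5 and 87.0 to 97.1). It was higher in the cluster of 158 PKCi and 587 control cells, at 38.9 against 30.9 CPM. The part of the cluster mix in the main population's ratio was not tested.

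Endothelial-like and fibroblast-like cells showed the widest gaps between libraries, but from few cells, and their values are given without calls. Endothelial-like cells had 347 CPM in PKCi (339 UMIs) against 924 CPM in control (400 UMIs), a ratio of 0.376 (0.324 to 0.435). Gbp2 stood at 67.6 against 307 CPM and Iigp1 at 95.2 against 279 CPM, whereas Irgm1 stood at 47.1 against 39.3 CPM (1.20, 0.675 to 2.23). The sum was lower in PKCi, while the interval of Irgm1 included 1. In PKCi 1 cell held 39.5% of the family's UMIs and in control 1 cell held 24.5%; without them the levels were 219 and 747 CPM. Krt8 was at 26.8% of its main population level in PKCi and 8.48% in control, and the 9 macrophage markers summed to 195 CPM in PKCi and 1041 CPM in control; their part was not tested.

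Fibroblast-like cells had 257 CPM in PKCi (151 UMIs) against 98.8 CPM in control (247 UMIs), a ratio of 2.60 (2.11 to 3.20). Their median depth was 13689 UMIs in PKCi and 40688 UMIs in control, and its part was not tested. Iigp1 stood at 74.9 against 11.2 CPM, Irgm1 at 34.0 against 7.20 CPM and Gbp5 at 42.6 against 13.6 CPM, all higher in PKCi. Igtp stood at 11.9 against 20.4 CPM (0.584, 0.224 to 1.29). When interferon genes were kept in the clustering, the log2 ratio of the sum was 0.68, against 1.38 without them, that of Iigp1 1.33 against 2.73 and that of Gbp5 -0.29 against 1.65. The class then held 26 PKCi and 24 control cells, against 28 and 61 without those genes. In PKCi 1 cell held 15.2% of the family's UMIs and in control 1 cell held 26.7%; without them the levels were 221.6 and 74.7 CPM. Krt8 was at 23.0% of its main population level in PKCi and 55.7% in control, the 7 fibroblast markers summed to 29973 CPM in PKCi and 14323 CPM in control and the 8 monocyte markers to 1144 CPM in PKCi and 296 CPM in control; their part was not tested.

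T-like cells had 485 against 559 CPM, a ratio of 0.869 (0.733 to 1.03). Gbp2 stood at 65.7 against 31.0 CPM (2.12, 1.13 to 4.1996), with 15 of the 42 PKCi UMIs in 1 cell; as a mean over cells its log2 ratio was 0.12, against 1.05 from sums. Both regulators had ratios below 1, Igtp at 59.5 against 106 CPM (0.559, 0.355 to 0.874) and Irgm1 at 14.1 against 35.5 CPM (0.397, 0.155 to 0.955). The 9 macrophage markers summed to 454 CPM in PKCi and 73.2 CPM in control in T-like cells, and their part was not tested. NK-like cells had 154 against 122 CPM (1.26, 0.898 to 1.78), with Gbp7 at 60.4 against 24.4 CPM; as a mean over cells the sum's log2 ratio was -0.24, against 0.33 from sums. Dendritic-like cells had 153 against 176 CPM (0.874, 0.605 to 1.28).

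Lists of genes around the family were read in the 4 classes with calls, against 8.56% higher and 5.87% lower of all genes in macrophage-like, 8.24% higher and 6.42% lower in monocyte-like, 21.9% higher and 5.82% lower in neutrophil-like cells and 4.23% higher and 4.63% lower in the main population. In macrophage-like cells 4 of 11 other interferon-inducible GTPases measured were called higher and 0 lower (median log2 ratio 0.53): Gbp2b (36 UMIs against 1), Gbp8 (27.0 against 9.19 CPM), Gbp6 (17.0 against 6.72 CPM) and Gm4951 (31.6 against 17.3 CPM). Of 21 type I interferon genes, 10 were called higher and 0 lower (median 0.75), with Ifit2 at 29.5 against 6.36 CPM and Irf7 at 28.1 against 10.96 CPM. Of 20 other interferon gamma targets, 3 were called higher (Wars, Cd74 and Gbp2b, which stands in both lists) and 1 lower, Cxcl9, at 133 against 246 CPM (median 0.13). In monocyte-like cells 1 of 8 other GTPases was called lower (Gbp9, 6.64 against 12.4 CPM) and 0 higher (median -0.38). Of 19 other targets there, 4 were called lower and 1 higher, Wars (median -0.21); Cxcl9 stood at 18.1 against 109 CPM, Nos2, which makes nitric oxide, at 15.8 against 59.1 CPM, and Socs1, an inhibitor of the pathway, at 17.9 against 39.4 CPM. Of 20 type I genes, 4 were called lower (Oasl1, Isg15, Ifit1 and Oasl2) and 1 higher, Cmpk2 (median -0.32).

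In the main population the medians were -0.34 for other GTPases, 0.03 for other targets and 0.08 for type I genes. There 2 of 10 other GTPases were called lower (Gm4951 and Gbp6) and 0 higher, while 6 of 20 other targets were called higher (Cxcl10, Ido1, Cd74, H2-Aa, H2-Ab1 and H2-Eb1) and 2 lower (Cxcl9 and Nos2). The last 4 of the higher ones serve antigen presentation on MHC class II and are high in leukocytes; 4 of the 16 leukocyte genes were called higher too (Ptprc, Laptm5, Cd53 and Cybb; median log2 ratio 0.44), and their part was not tested. Cxcl10, a chemokine of the same receptor as Cxcl9, stood at 96.6 against 53.0 CPM, whereas Cxcl9 stood at 1.41 against 2.62 CPM. Of 22 type I genes, 2 were called higher, Ifit1 (4.21 against 1.36 CPM) and Oasl1 (2.76 against 1.68 CPM), and 0 lower. In neutrophil-like cells 0 of 3 other GTPases were called higher and 0 lower, 4 of 16 type I genes were called higher and 0 lower, and 3 and 3 of 16 other targets were called higher and lower, where 21.9% of all genes were called higher. Their medians were -0.11, 0.41 and 0.01, against 0.34 over all genes of these cells.

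Among genes of the receptor and its signalling, Ifngr1 stood at 156 against 105 CPM in macrophage-like cells (1.49, 1.31 to 1.70) and at 239 against 157 CPM in monocyte-like cells (1.53, 1.39 to 1.68), where it was called higher. In the main population it stood at 20.3 against 19.4 CPM and in neutrophil-like cells at 53.8 against 67.0 CPM. Ifngr2 was called in none of the 4 classes, with ratios between 0.830 and 1.06. Irf1 was called in neutrophil-like cells, at 284 against 155 CPM (1.84, 1.54 to 2.19), and in none of the other 3. Of the 15 genes of this list, 3 were called higher and 0 lower in macrophage-like cells (Batf2, Ptpn2 and Stat2), 1 and 2 in monocyte-like cells (lower were Socs1 and Batf2), where 8.56% higher and 5.87% lower and 8.24% higher and 6.42% lower of all genes were called, and 0 and 0 in the main population; of 13 in neutrophil-like cells, 2 were called higher (Irf1 and Jak2) and 1 lower (Ifnar2), where 21.9% higher and 5.82% lower of all genes were called. The medians were 0.25 in macrophage-like, -0.17 in monocyte-like and 0.03 in neutrophil-like cells and -0.06 in the main population.

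Among interferons and the interleukins that induce Ifng, Il18 was called lower in monocyte-like cells, at 14.3 against 36.6 CPM, and Il12a in neutrophil-like cells (5 UMIs against 24). In the main population Ifng (20 UMIs against 6) and Ifnb1 (39 against 2) were called higher from few counts. A list of 12 autophagy genes held conjugation genes, some of which the IRGs need to reach their target membranes. It also held Sqstm1 and Tax1bp1, which are cargo receptors. Of the 12, 0 were called in macrophage-like cells and 0 in the main population. In monocyte-like cells 1 was lower (Sqstm1), and in neutrophil-like cells 1 was higher and 2 lower. Of 9 inflammasome genes, 2 were called higher in macrophage-like cells: Nlrp3, the sensor, at 328 against 217 CPM, and Il1b, a cytokine that it helps to mature, with a ratio of 2.16 (2.03 to 2.29). In monocyte-like cells 1 was higher (Pycard) and 1 lower (Il18), in neutrophil-like cells 1 and 2, and in the main population 0 and 1 (Nlrp3, 2.48 against 4.37 CPM). Of all genes 8.56% were called higher in macrophage-like and 21.9% in neutrophil-like cells, so single calls in lists of this size are near the background.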

How the data were processed

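Single-cell libraries of dissociated tumours were made with 10x 3′ v3.1 chemistry, per the labels. The deposited values are raw UMI counts per gene and barcode, made with Cell Ranger 7.0.0 per the file headers; the submitters' processing notes name GRCm38 and Seurat. Whether intronic reads were counted is not given in the sources used here, and doublets or free RNA are not stated to have been removed.

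Here, barcodes with under 500 genes or over 20% mitochondrial UMIs were dropped, and Scrublet (score over 0.3, expected rate 6%) removed 132 PKCi (1.83%) and 111 control (1.74%) barcodes as doublets. Cells were clustered with scanpy 1.11.5 (2000 variable genes, 30 components, 15 neighbours, Leiden 1.0, mixed clusters split at 0.3), leaving out 91 family and interferon genes. Clusters were named from marker lists, with thresholds set after seeing the markers (markers at a mean of at least 0.35 of their highest cluster level, at least 3 of them at 50 CPM, Krt8 under 250 CPM), so class sizes depend on rebuilt names. UMIs were summed per class and library; intervals are exact Poisson, Clopper-Pearson or conditional binomial, and log2 ratios add 0.5 counts. The calling step was checked only on simulated Poisson counts, the model that the intervals assume. UMIs were not clumped in cells there, so the check cannot show how calls behave where few cells hold the UMIs. All members are named, with up to 4 called genes per list, class and direction, Ifng, Ifngr1, Ifngr2 and Irf1, less items not reported here; genes given for main population cells with at least 3 members were chosen after their values were seen. The members and lists were chosen with earlier results of these data known. Total UMIs were 229219749 (PKCi) and 222641855 (control).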

Additional observations from a re-analysis of the deposited data

Results flagged for a closer look

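Several ratios of PKCi over control had opposite signs in different cell classes, and these differences between classes were not tested, since each treatment has 1 library. Gbp4 had a log2 ratio of 1.43 in macrophage-like and -1.09 in monocyte-like cells, and Gbp5 had 1.26 and -1.57. These values depended on the grouping. In monocyte-like cells at Leiden resolution 1.6 the ratios were 0.697 (0.241 to 1.66) for Gbp4 and 0.857 (0.447 to 1.53) for Gbp5. Both intervals included 1, and the log2 ratio of the sum was 0.17 there. The sum of the 10 genes had a log2 ratio of -0.75 in monocyte-like, -1.41 in endothelial-like and 1.38 in fibroblast-like cells, the last 2 from 28 to 61 cells per library.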

How the results depend on the processing

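No paired analysis was possible because each treatment has 1 library. Values here are log2 ratios of the summed level, numbers of members called or shares of cells, and the cause of each shift was not tested. At Leiden resolution 0.6 there was no monocyte-like class, and the macrophage-like class held 1096 PKCi and 803 control cells. It had a sum of 0.19, Gbp5 at -0.011 (turned) and a PKCi share of 9.75%. At resolution 1.6 monocyte-like cells turned to 0.17, with 0 members lower and 2 higher, Irgm1 at 0.83, Iigp1 at 1.06 and a PKCi share of 15.4%, and macrophage-like cells had 0.64 and 6 higher. Clustering with interferon genes gave fibroblast-like cells 0.68 and Gbp5 there -0.29 (turned). With doublets kept, macrophage-like cells had 0.58 and 6 higher, and the main population 0 lower. The stricter cell filter gave 0.71 and 6 higher in macrophage-like cells, 3 lower in monocyte-like cells, and -0.57 and 2 lower in neutrophil-like cells. Subtracting free RNA gave neutrophil-like cells 0.48 with 3 higher and 0 lower, endothelial-like cells -1.12 and fibroblast-like cells 0.93. A mean over cells gave 0.17 in macrophage-like, -0.85 in T-like, -0.24 in NK-like, -2.13 in endothelial-like cells and -0.19 in the main population, with 3 lower in monocyte-like cells and 1 higher in the main population. Median-ratio scaling gave 2 lower in neutrophil-like cells. Calling at 2 times left 0 lower in the main population, and requiring 50 UMIs left 0 lower in neutrophil-like cells. Chosen after seeing the data, leaving out the top cell of each library gave -1.77 in endothelial-like cells and 0 lower in neutrophil-like cells, and main population cells without leukocyte UMIs gave -0.20 and 0 lower. Thinned to 2000 UMIs, the PKCi and control shares were 4.47% and 2.84% in macrophage-like, 2.24% and 2.92% in monocyte-like cells and 0.171% and 0.268% in the main population; for at least 2 members they were 24.5% and 23.5%, 10.3% and 13.7%, and 2.43% and 2.34%. The top 1% of main population cells held 23.4% (PKCi) and 29.2% (control) of the family's UMIs, and without leukocyte UMIs the top 5% of PKCi cells held 45.6%. Of 90 alternative values of the summed level 73 lay within the 95% interval of the reported one, and 4 had the other sign, 1 of them in a class where the sum had been called. Of 879 for single members 803 lay within it, and 57 had the other sign, 4 of them for members that met the calling rule. Among these 4 was Gbp5 in fibroblast-like cells, a class given above without calls.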
